A study of Mus musculus with 2 samples.

Results

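The set consisted of 10 genes of cytotoxic lymphocytes, out of 32285 genes in the deposited matrices, taken by their symbols. They were the granule genes Gzma, Gzmb, Prf1 and Nkg7, the receptor genes Ncr1, Klrb1c and Klrd1, the cytokine receptor chain Il2rb, the transcription factor Eomes and the cytokine Ifng. The genes were chosen by what they showed in earlier readings of these same cells, so their height in natural killer (NK) cells is described here and not tested. The question added to the set was whether Il2rb in cells rich in Col2a1, the main cartilage collagen, kept the proportion to Gzma and Nkg7 that RNA released from NK cells would have.

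Callus, the repair tissue of a broken bone, was taken from wild-type C57BL/6J mice after femoral fracture and digested to single cells, which were read as unique molecular identifiers (UMIs, 1 per captured RNA molecule). The design named 10 and 20 days post-fracture (dpf) with 5 mice each, and the labels named 2 libraries, MGJ and MGJ2, without giving the day of either. Cells could not be traced to a mouse. The libraries were therefore described side by side, with no comparison of days, no replicate and no p-value, and every interval (95%) covered counting error only.

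Cytotoxic lymphocytes kill through granules. Perforin, the product of Prf1, opens the target membrane to granzymes, proteases such as those encoded by Gzma and Gzmb. NK cells decide on killing by weighing activating receptors against inhibitory ones that read MHC class I molecules. Il2rb encodes the chain shared by the receptors for interleukin-2 and interleukin-15, and it signals together with the common gamma chain through JAK and STAT5 proteins to keep NK cells and memory T cells alive.

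The stretch upstream of the start site was searched for short letter patterns bound by lymphocyte transcription factors, because 3 or more of the 10 genes were detected together in most NK-like cells. RefSeq windows (250 bases, GRCm38.p6) matched 8 of the 10 genes, with 2 windows for Ncr1 and none for Klrd1 or Il2rb. The Runx pattern TGTGGT, counted on both strands, was in 7 of 9 windows, against 14.0% of 32841 windows of the same length. The 2 Ncr1 windows (chr7:4337465-4337714 and chr7:4337474-4337723) overlap almost wholly and hold the same Runx letters, so they are not separate hits. The T-box pattern GGTGTGA was in 1 window (Nkg7, 3.33% of all windows), the STAT pattern TTCNNNGAA in 2 windows (Nkg7 and Ifng, 7.02%) and the ETS pattern ACAGGAA in none (7.20%). Matches of different patterns did not overlap in any of the 9 windows. The windows of the 3 effector genes Gzma, Gzmb and Prf1 and of the receptor gene Ncr1 are printed 5′ to 3′ on the strand of the gene, with the Runx letters in capitals on either strand (Gzma chr13:113100982-113101231, minus; Gzmb chr14:56262335-56262584, minus; Prf1 chr10:61297586-61297835, plus; Ncr1 chr7:4337465-4337714, plus). They show where the letters lie and not that a factor bound there.
Gzma: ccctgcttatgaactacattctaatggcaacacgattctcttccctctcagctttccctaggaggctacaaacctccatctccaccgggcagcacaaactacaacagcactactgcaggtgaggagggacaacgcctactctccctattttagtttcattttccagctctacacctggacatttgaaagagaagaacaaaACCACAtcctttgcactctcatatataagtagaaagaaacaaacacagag
Gzmb: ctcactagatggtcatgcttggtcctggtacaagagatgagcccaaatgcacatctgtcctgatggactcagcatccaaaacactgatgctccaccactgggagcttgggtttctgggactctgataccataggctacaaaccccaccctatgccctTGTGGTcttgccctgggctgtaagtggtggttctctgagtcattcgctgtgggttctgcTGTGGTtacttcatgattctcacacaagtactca
Prf1: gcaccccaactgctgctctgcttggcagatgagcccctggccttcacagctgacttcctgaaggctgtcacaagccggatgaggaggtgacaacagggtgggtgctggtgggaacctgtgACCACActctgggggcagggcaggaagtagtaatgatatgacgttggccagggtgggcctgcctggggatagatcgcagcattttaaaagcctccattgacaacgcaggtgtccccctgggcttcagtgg
Ncr1: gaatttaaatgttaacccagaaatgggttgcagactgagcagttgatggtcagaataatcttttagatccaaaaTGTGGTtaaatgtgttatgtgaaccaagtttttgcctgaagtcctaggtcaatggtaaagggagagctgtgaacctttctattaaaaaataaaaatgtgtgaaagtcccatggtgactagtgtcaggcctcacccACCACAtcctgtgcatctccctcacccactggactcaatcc

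Of the barcodes, 13320 of 14295 in MGJ and 7584 of 8009 in MGJ2 had at least 200 detected genes, at most 20% mitochondrial UMIs and no doublet call. Median depth was 5026 and 4952 UMIs a barcode. The libraries shared 19 barcodes, 13 of them among kept cells. Clusters were named from marker genes that excluded all 10 genes, and the 10 genes also took no part in forming the clusters. NK-like cells numbered 70 in MGJ and 685 in MGJ2, and T-like cells 226 and 806. In MGJ, 30.1% of kept cells stayed unnamed. NK-like cells carried 10 of 11 and 11 of 11 NK markers, but the T-cell marker list also summed to 963 and 744 CPM (UMIs of a gene per 1000000 UMIs of the class) in them, against 4601 and 3439 CPM in T-like cells. In MGJ, Trbc1 made 682 and Trbc2 229 CPM of that sum in NK-like cells, while Cd3e, Cd3g, Cd5, Bcl11b and Themis gave 0 UMIs. Cartilage markers summed to 1187 and 234 CPM in NK-like cells and to 952 and 121 CPM in neutrophil-like cells, classes that should lack them.

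NK-like cells held 29.8% of all UMIs of the 10 genes in MGJ and 57.4% in MGJ2. The share in MGJ was 50.4% with every cell weighted equally, and clustered alone MGJ gave no NK-like cluster. When NK and T cells were instead defined cell by cell, from at least 2 UMIs of their own marker list and 0 of the other, the shares were 11.3% and 12.2%. A cell with a Trbc1 or Trbc2 UMI could not count as NK under that definition. The plot of UMI shares by class shows how unevenly the genes were spread. Ncr1 and Eomes lay mostly in NK-like and T-like cells, whereas most Gzmb, Prf1, Klrd1, Nkg7 and Ifng UMIs of MGJ lay elsewhere. Nearly every NK-like cell carried Il2rb, with at least 1 UMI in 98.6% of cells in MGJ and 98.8% in MGJ2. A median of 4.5 and 5 of the 10 genes was detected in an NK-like cell, and at least 3 were detected in 63 of 70 and 660 of 685 of them. In T-like cells at least 3 were detected in 16.4% and 44.4%, and in neutrophil-like cells in 0.191% and 0.223%.

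**Figure D1:**
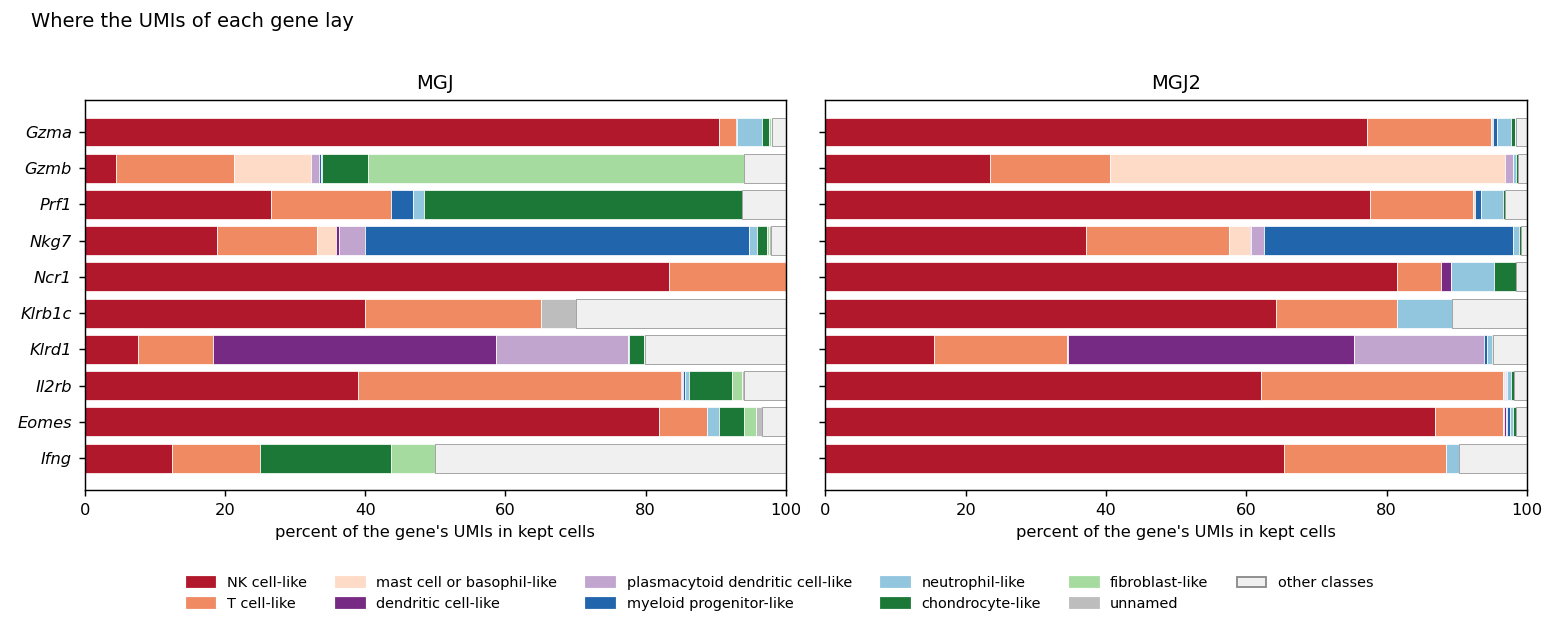
Share of the UMIs of each gene (percent of that gene's UMIs in kept cells, horizontal axis) that lay in each cell class, for library MGJ on the left and MGJ2 on the right. The red segment of NK-like cells fills most of the Gzma bar in both libraries, while NK-like and T-like cells together fill the smaller part of the Klrd1 bar.

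The number of genes past a 2-fold ratio was read against all genes. Among genes with at least 50 UMIs in NK-like cells, 40.5% were at least 2 times higher there than in all other cells of MGJ and 24.5% in MGJ2. Of the 10 genes, 4 of 4 and 10 of 10 that reached 50 UMIs passed that ratio. In T-like cells 4 of 4 passed in MGJ, where 34.6% of all genes did, and 6 of 7 in MGJ2, where 18.8% did. At most 0.5 times the other cells were 0 members in either class, beside 5.08% and 6.13% of all genes in NK-like and 6.41% and 8.68% in T-like cells. In Col2a1-high cells 0 of 2 and 0 of 1 passed, beside 15.3% and 26.9% of all genes, and these 2 and 1 genes were at most 0.5 times the other cells, as 19.7% and 15.5% of all genes were. The UMI minimum admits a gene through the very class in which it is high, and with so large a background share these counts carried little about the set.

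Gzma, a granule protease that cuts after basic residues, lay at 2174 CPM in NK-like cells of MGJ (456 UMIs in 70 cells) and at 1726 CPM in MGJ2 (5004 UMIs in 685 cells). It was detected in 81.4% and 87.4% of NK-like cells, and in 73.2% and 82.0% after every cell was thinned to 2000 UMIs. In neutrophil-like cells, a class that should lack the gene, the thinned shares were 0.228% and 0.640%. T-like cells differed between the libraries, with 14.7 CPM in MGJ and 252 CPM in MGJ2. The NK-to-T ratio was accordingly 148 (84.0 to 289) in MGJ and 6.84 (6.41 to 7.30) in MGJ2, and with the per-cell definition it was 293 in MGJ.

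Gzmb, a granule protease that activates caspases in the target, did not set NK-like cells apart from T-like cells in MGJ. It stood at 186 CPM (39 UMIs) in NK-like and 180 CPM (147 UMIs) in T-like cells there, a ratio of 1.03 (0.708 to 1.48). In MGJ2 the levels were 163 and 77.1 CPM, a ratio of 2.12 (1.84 to 2.44), but with the per-cell definition it turned to 0.701 (0.563 to 0.872), and in MGJ it was 1.56. Its highest level in either library was in neither class but in the mast cell or basophil-like cluster.

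Prf1, the pore-forming protein, was at 81.0 CPM in NK-like cells of MGJ (17 UMIs) and 186 CPM in MGJ2 (539 UMIs), and at 13.4 and 22.6 CPM in T-like cells. The ratios of 6.03 (2.66 to 14.2) and 8.23 (6.65 to 10.3) had overlapping intervals, and the former was 3.55 with the per-cell definition. Chondrocyte-like cells held 29 of the 64 Prf1 UMIs in MGJ, and 2 of 694 in MGJ2. In MGJ they were 20.3% of kept cells but deep, with 57618630 UMIs beside 135304426 in all barcodes of the library. The Prf1 level in their clusters of MGJ was 0.180 to 1.57 CPM, far under that of NK-like cells. Nkg7, a membrane protein of cytotoxic granules, was at 944 and 755 CPM in NK-like cells and at 182 and 265 CPM in T-like cells, ratios of 5.18 (4.17 to 6.45) and 2.85 (2.65 to 3.06), which became 9.24 and 1.46 with the per-cell definition.

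**Figure D2:**
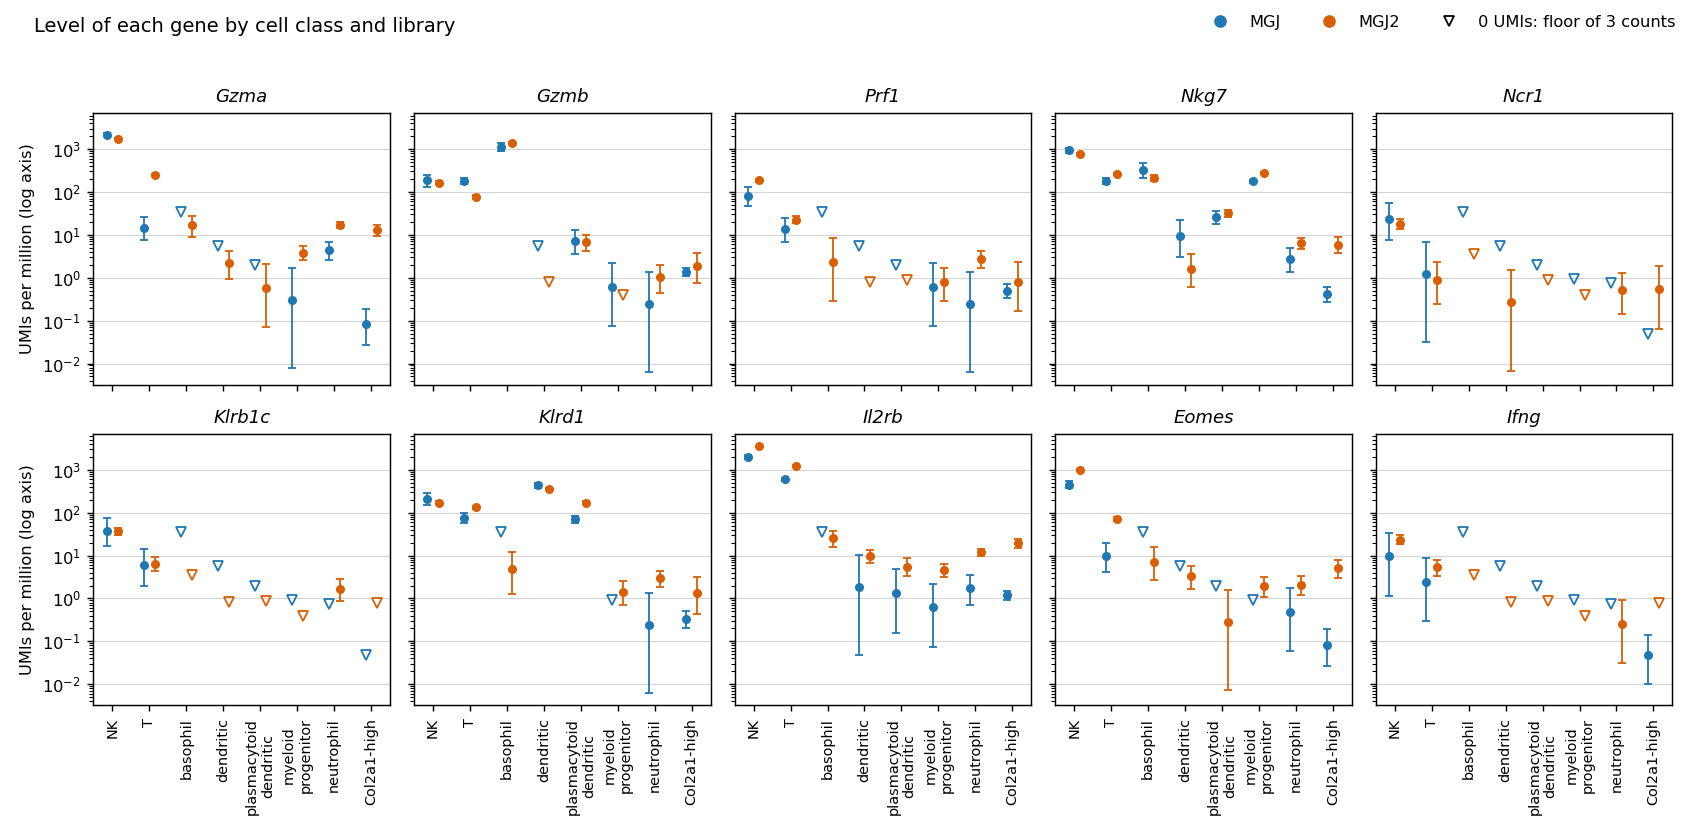
Level of each of the 10 genes (CPM, log axis) in 8 cell classes, with MGJ in blue, MGJ2 in orange and bars for the exact 95% Poisson interval; open triangles mark classes with 0 UMIs at the floor of 3 counts. NK-like cells are highest for Gzma, Prf1, Ncr1, Klrb1c, Il2rb, Eomes and Ifng, whereas Gzmb peaks in the mast cell or basophil-like cluster and Klrd1 in dendritic cell-like cells.

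Of the receptor genes, Ncr1 (the activating receptor NKp46) was the sparsest, with 5 UMIs in NK-like cells of MGJ (23.8 CPM) and 53 in MGJ2 (18.3 CPM). T-like cells held 1 and 4 UMIs, and all other cells of MGJ held none (floor 0.0230 CPM). Klrb1c, which encodes the NK1.1 antigen of this mouse strain, was at 38.1 and 37.3 CPM in NK-like cells and at 6.11 and 6.42 CPM in T-like cells. NK-like cells held 8 of the 20 Klrb1c UMIs of MGJ, beside 3 in macrophage-like and 2 in monocyte-like cells. In MGJ2 they held 108 of 168, beside 17 in pre-B cell-like and 13 in neutrophil-like cells. Both genes thus stood higher in NK-like than in T-like cells, but too few molecules were captured for either to call single cells.

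Klrd1 encodes CD94, which pairs with NKG2 proteins to read the MHC class I molecule encoded by H2-T23. It was at 210 CPM in NK-like and 74.5 CPM in T-like cells of MGJ, a ratio of 2.81 (1.86 to 4.21), and at 170 and 133 CPM in MGJ2, a ratio of 1.28 (1.14 to 1.45). The per-cell definition gave 33.7 and 6.47. Dendritic cell-like cells stood about 2 times above NK-like cells in both libraries, at 432 CPM (231 UMIs in 74 cells) and 352 CPM (1298 UMIs in 347 cells), with intervals of that ratio of 1.49 to 2.91 and 1.86 to 2.30. Gzma was at 0 UMIs in dendritic cell-like cells of MGJ and at 2.17 CPM in MGJ2, far under its level in NK-like cells.

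The plasmacytoid dendritic cell-like cluster held Klrd1 as well, and unevenly. Its cells with at least 2 UMIs of the markers Siglech, Ccr9, Cox6a2 and Klk1 were at 427 CPM in MGJ (31 cells) and 436 CPM in MGJ2 (85 cells), and Klrd1 was detected in 80.6% and 85.9% of them. The rest of the cluster was at 7.74 and 24.2 CPM. Klrd1 therefore lay in the cells of the cluster with the clearest plasmacytoid markers, in both libraries.

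Il2rb was at 1964 CPM in NK-like cells of MGJ (412 UMIs) and 3493 CPM in MGJ2 (10126 UMIs). T-like cells came next in both libraries, at 596 and 1248 CPM, with ratios of 3.29 (2.88 to 3.76) and 2.80 (2.71 to 2.89), the latter 1.23 with the per-cell definition. The third place went to erythroid-like cells in MGJ, at 41.8 CPM (15 UMIs in 81 cells), which also carried Gzma at 25.1 CPM (9 UMIs) and Klrd1 at 33.5 CPM (12 UMIs), and to pre-B cell-like cells in MGJ2, at 34.3 CPM. From there down, neighbouring classes of MGJ2 could not be separated by their counts, since the ratio of the third to the fourth class was 1.24 (0.674 to 2.49).

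Eomes, the T-box factor of mature NK cells, was at 453 and 986 CPM in NK-like cells and at 9.78 and 70.2 CPM in T-like cells, ratios of 46.3 (22.6 to 110) and 14.1 (12.5 to 15.8), the former 91.9 with the per-cell definition. Ifng, which encodes interferon-gamma, gave only 2 UMIs in NK-like cells of MGJ (9.53 CPM) and 68 in MGJ2 (23.5 CPM). It was detected in 2.86% and 7.15% of NK-like cells, so most of them gave no Ifng molecule at these depths.

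T-like cells were split by single-cell detection of subset markers, which misses cells whose marker was not captured. In MGJ2 the 345 cells with Cd8a or Cd8b1 and without Cd4 were at 501 CPM of Gzma and 408 CPM of Nkg7. The 28 such cells of MGJ were at 76.3 CPM of Gzma (7 UMIs) and 991 CPM of Nkg7 (798 to 1217, 91 UMIs). NK-like cells of MGJ stood at 944 CPM of Nkg7, so this gene did not set them apart from the Cd8 subset there. Cells with a gamma-delta receptor constant gene and without Cd4 or Cd8 carried the most Il2rb, 1069 CPM in MGJ (27 cells) and 1715 CPM in MGJ2 (125 cells), but Gzma at 0 and 20.5 CPM. The Cd8 subset of MGJ2 had Il2rb at 1014 CPM. Il2rb thus stood higher in the gamma-delta subset of MGJ2 than in its Cd8 subset, and Gzma lower.

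T-like cells with Foxp3, the factor of regulatory T cells, carried Gzmb with little of the other granule genes. In MGJ 27 such cells were at 808 CPM of Gzmb (86 UMIs, detected in 51.9%), with 0 UMIs of Gzma and of Prf1 and a floor of 28.2 CPM for each, and Nkg7 at 37.6 CPM (4 UMIs). In MGJ2 15 cells were at 139 CPM of Gzmb, but all 16 UMIs lay in 1 cell, beside 1 UMI of Gzma, 0 of Prf1 and 4 of Nkg7 (34.8 CPM). The plot of T-like subsets shows this Gzmb level as the highest of the 4 subsets in MGJ.

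**Figure D3:**
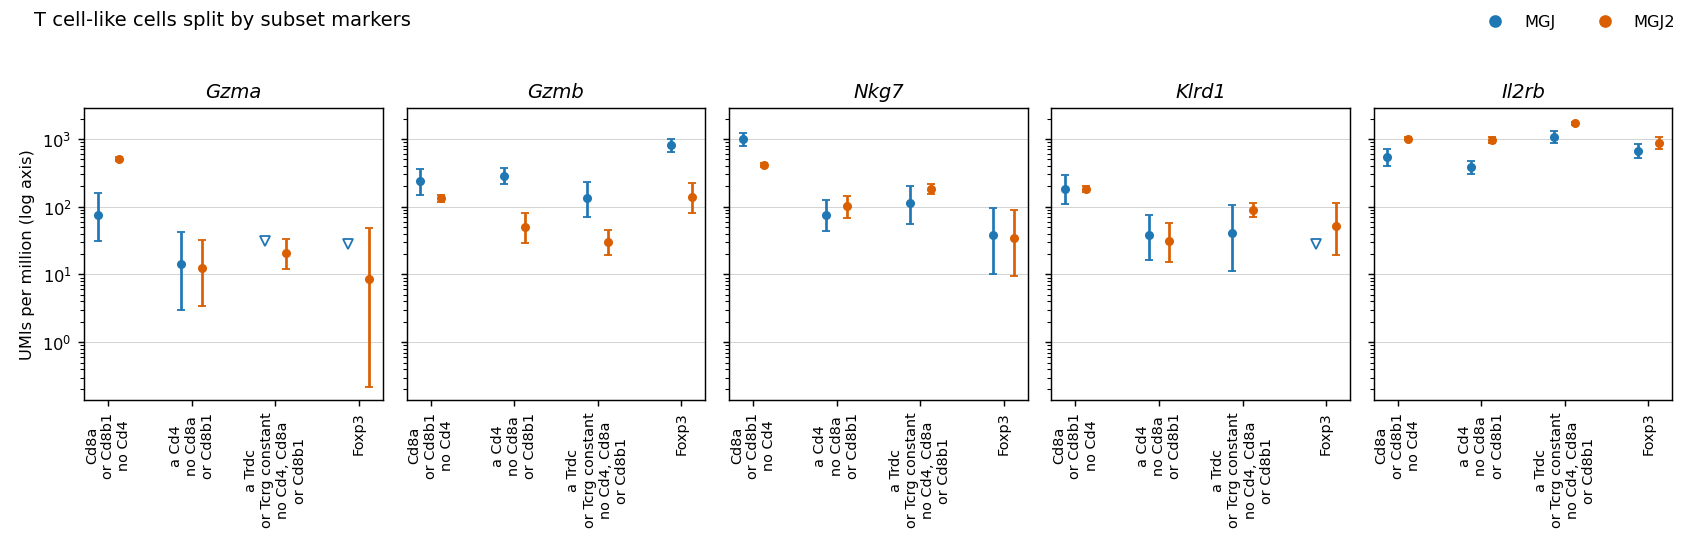
Levels of Gzma, Gzmb, Nkg7, Klrd1 and Il2rb (CPM, log axis) in 4 overlapping subsets of T-like cells, with MGJ in blue, MGJ2 in orange, exact 95% Poisson intervals as bars and open triangles for 0 UMIs at the floor of 3 counts. In MGJ the Foxp3 subset stands at 808 CPM for Gzmb, while its Gzma is at 0.

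Outside lymphocytes, Gzmb was highest in the mast cell or basophil-like cluster, at 1360 CPM (1140 UMIs in 106 cells) in MGJ2 and 1107 CPM (96 UMIs) in the 15 cells of MGJ. It was detected in 71.7% and 66.7% of these cells. In MGJ2 that was 8.32 times (7.47 to 9.28) the NK-like level. Gzmc, the neighbouring granzyme gene, was at 632 and 381 CPM in the same cells, Gzma at 16.7 CPM in MGJ2 and 0 in MGJ, and Prf1 at 2 UMIs in MGJ2 and 0 in MGJ.

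Fibroblast-like cells, 594 cells present only in MGJ, also carried Gzmb, at 44.7 CPM. Their 469 UMIs lay in 75 cells, up to 43 in a cell, and the 5 richest cells held 168. Gzmc was at 86.5 CPM, Gzmd at 22.1 CPM and Gzme at 104 CPM in these cells, whereas Gzma gave 1 UMI, Prf1 0 and Nkg7 3. Gzmb was detected in 29.0% of cells with a Gzmc, Gzmd, Gzme, Gzmf or Gzmg UMI and in 4.31% of the rest, and 10 of the 75 Gzmb cells had a UMI of the leukocyte gene Ptprc. Tendon-like cells of MGJ carried the same neighbours, with Gzmc at 10.3, Gzmd at 21.4 and Gzme at 31.8 CPM, but Gzmb at 2.41 CPM. Granzymes b to g are close relatives in sequence, and how reads were divided among them was not tested.

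Nkg7 was also carried by myeloid progenitor-like cells, at 177 CPM (573 UMIs) in MGJ and 273 CPM (2085 UMIs) in MGJ2, where Gzma gave 1 and 29 UMIs. In the mast cell or basophil-like cluster of MGJ2 it was at 211 CPM. Nkg7 was thus shared by cytotoxic and granule-forming myeloid cells, while Gzma followed NK-like cells and, in MGJ2, T-like cells.

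Col2a1-high cells, those with at least 10000 CPM of Col2a1, numbered 2853 in MGJ (21.4% of kept cells) and 125 in MGJ2 (1.65%), and 90.7% and 94.4% of them were chondrocyte-like. The cells next to the limit were at 10014 CPM inside and 9980 CPM outside in MGJ, and at 10510 and 9825 CPM in MGJ2. Il2rb gave 73 UMIs in each library, which was 1.19 CPM (0.933 to 1.50) in MGJ and 19.5 CPM (15.3 to 24.5) in MGJ2. The ratio to neutrophil-like cells, the reference class, was 0.692 (0.319 to 1.78) in MGJ and 1.64 (1.19 to 2.25) in MGJ2. In MGJ the 7 Il2rb UMIs of the reference lay in 2 cells, with 3 and 4 UMIs, both with a Gzma or Nkg7 UMI. The reference left out unnamed clusters of 1946 and 1887 MGJ cells whose best-scoring marker list was neutrophil. All unnamed cells of MGJ together held 4 Il2rb UMIs in 7846585 UMIs, against 7 in 4073791 in the reference.

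Shares of cells told the same about MGJ. Il2rb was detected in 1.96% of Col2a1-high cells and 0.191% of neutrophil-like cells there, at median depths of 21374 and 3464 UMIs. After thinning to 2000 UMIs a cell the shares were 0.228% (0.0785 to 0.465) and 0.180% (0.00332 to 0.729). In MGJ2 the raw shares were 16.0% and 2.58%, and the thinned shares 2.69% (0.510 to 7.02) and 1.64% (1.07 to 2.34). At equal depth the intervals of Col2a1-high cells and of the reference class thus overlapped in both libraries. For MGJ2 this did not settle the comparison, since the share rested on few cells and the CPM ratio there had an interval above 1.

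Free RNA from 1 source keeps its genes in 1 ratio, so Il2rb was set against the sum of Gzma and Nkg7. The pair did not have 1 source, since 54.7% of Nkg7 UMIs in MGJ and 35.4% in MGJ2 lay in myeloid progenitor-like cells. In Col2a1-high cells of MGJ the pair was 5 Gzma and 26 Nkg7 UMIs, but in NK-like cells it was 456 Gzma and 198 Nkg7 UMIs. The values below for MGJ therefore depend on how little Gzma was in Col2a1-high cells as well as on Il2rb. In MGJ, NK-like cells held 412 UMIs of Il2rb to 654 of the pair, a ratio of 0.630, and Col2a1-high cells 73 to 31, a ratio of 2.35, so the odds ratio was 3.74 (2.37 to 5.99). T-like cells stood at 3.03, and against them the odds ratio was 0.777 (0.484 to 1.27). Il2rb in Col2a1-high cells of MGJ relative to this pair thus exceeded the NK-like proportion and was not separated from the T-like proportion. Set against Nkg7 alone, Il2rb was not separated from the NK-like proportion. Relative to Cd3d, Cd3e and Cd3g, a measure added after seeing the data, the odds ratio to T-like cells was 3.24 (2.25 to 4.66). The other members did not give 1 answer, since the odds ratio was 16.2 (6.51 to 51.6) with Gzma alone, 1.35 (0.822 to 2.27) with Nkg7 alone and 0.890 (0.651 to 1.21) with all other 9 genes. Of the 172 UMIs of those 9 genes in Col2a1-high cells of MGJ, 82 were Gzmb in cells without Il2rb.

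**Figure D4:**
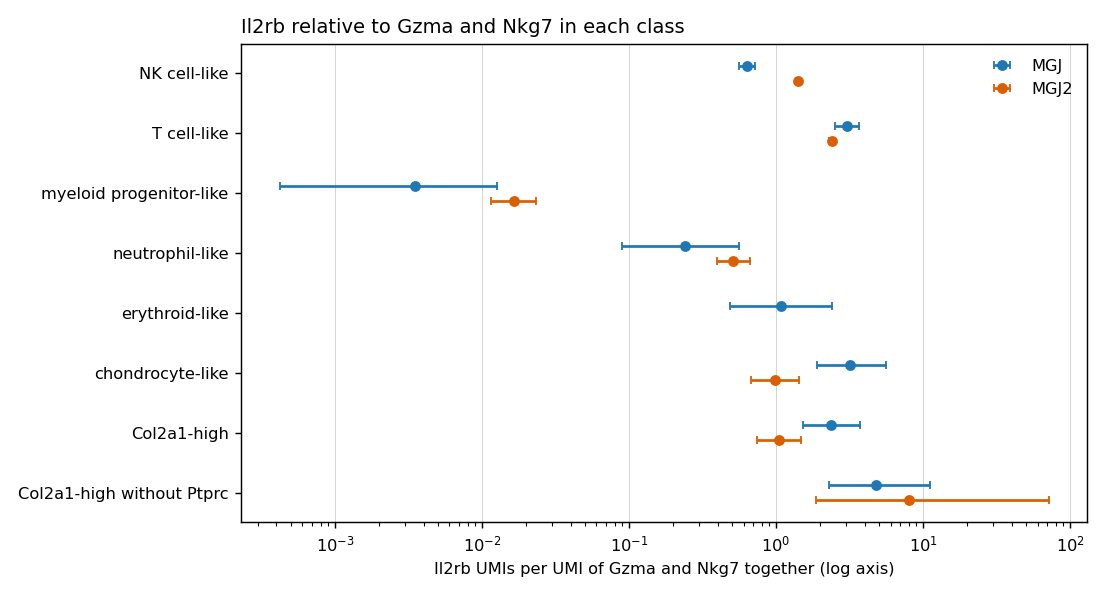
Il2rb UMIs per UMI of Gzma and Nkg7 together (log axis) in each class, with exact 95% intervals, MGJ in blue and MGJ2 in orange. Col2a1-high cells sit at 2.35 in MGJ, near T-like cells at 3.03, and at 1.04 in MGJ2, while cells of that group without a Ptprc UMI sit at 4.78 and 8. Erythroid-like cells of MGJ2 have no point, since the pair gave 0 UMIs there.

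In MGJ2 the same ratio was 1.04 (73 to 70) in Col2a1-high cells and 1.41 in NK-like cells, an odds ratio of 0.741 (0.526 to 1.05). Of the 20 Col2a1-high cells with Il2rb, 1 lay in the NK-like cluster, and the odds ratio counted it as Col2a1-high and not as NK-like. That odds ratio rested on 4 cells with at least 5 Il2rb UMIs, which held 54 of the 73 Il2rb, 47 of the 48 Gzma and 15 of the 22 Nkg7 UMIs. They also held 78 of the 83 UMIs of NK markers, but 19 of the 73 UMIs of T-cell markers. Without these 4 cells the odds ratio was 1.69 (0.705 to 4.46) and the ratio to neutrophil-like cells fell to 0.449 (0.259 to 0.742). The neutrophil-like side was left whole for that ratio. Single cells of it held 5 and 25 of its 92 Il2rb UMIs, each with a Gzma or Nkg7 UMI. In the 95 cells without a Ptprc UMI, 16 Il2rb UMIs stood against 2 of the pair, an odds ratio of 5.68 (1.34 to 51.0). Against T-like cells as the source the odds ratio in MGJ2 was 0.433 (0.306 to 0.612). Of the Col2a1-high cells of MGJ2, 4 thus carried most of the Il2rb, Gzma, Nkg7 and NK marker UMIs, though not of the T-cell marker UMIs. Of the rest, 105 held no Il2rb UMI, 14 held 1, and 1 cell each held 2 and 3.

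**Figure D5:**
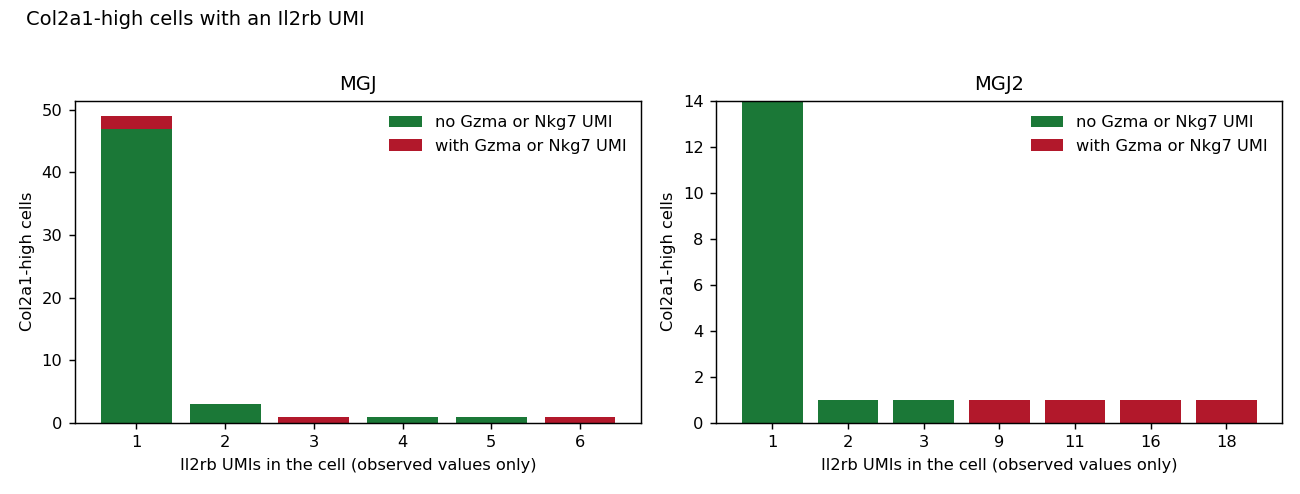
Number of Col2a1-high cells (vertical axis) by their count of Il2rb UMIs (horizontal axis, observed counts above 0), MGJ on the left and MGJ2 on the right; red marks cells that also had a Gzma or Nkg7 UMI. In MGJ 49 cells had 1 Il2rb UMI, 2 of them with Gzma or Nkg7, and in MGJ2 the 4 cells at 9, 11, 16 and 18 UMIs all had one.

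The plot of Il2rb UMIs per cell shows both kinds. In MGJ, 49 of 56 positive cells had 1 UMI, the most was 6, and 28.6% of positive cells had a Ptprc UMI against 9.80% of the others. Positive cells were deeper, with a median of 25823 against 21226 UMIs. In MGJ2, 14 of 20 positive cells had 1 UMI, and the medians were 40326 and 28233 UMIs. Whether depth, cells captured together or RNA of the cell itself gave these molecules was not tested.

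Other T-cell and NK genes in Col2a1-high cells were not uniform. In MGJ the 10 T-cell markers summed to 15.2 CPM, of which Trac made 11, and the NK markers to 1.83 CPM, with 4 of 11 at 0. Trdc, the gamma-delta receptor constant gene, was at 47.4 and 36.0 CPM in MGJ and MGJ2, and Ctsw, the granule-associated cathepsin W, at 26.4 and 16.0 CPM, ratios to all other cells of 6.45 and 3.77 for Trdc and of 6.86 and 0.484 for Ctsw. Gzmb gave 83 UMIs in MGJ, 72 of them in 5 cells and 82 in cells without Il2rb. Ncr1 and Klrb1c gave none there.

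Partners of Il2rb were read from a fixed list of the interleukin-2 and interleukin-15 pathway, counting genes with at least 50 UMIs in the class and a 2-fold ratio to all other cells. In NK-like cells of MGJ2, 6 of 7 were higher and 0 lower, where 24.5% and 6.13% of all genes were, led by Jak1 (701 CPM), Il2rg (148), Stat5b (140) and Stat5a (139). In T-like cells 6 of 6 were higher in MGJ and 8 of 8 in MGJ2, where 34.6% and 18.8% of all genes were. Il2ra, the chain that raises affinity for interleukin-2, was at 326 and 87.3 CPM in T-like cells and at 23.8 and 6.90 CPM in NK-like cells. In Col2a1-high cells of MGJ 1 of 11 was higher and 5 lower, where 15.3% of all genes were higher and 19.7% lower. The higher one was Il2, the ligand itself, at 5.10 CPM against 0.868 CPM in all other cells, and Il2rg was at 2.23 CPM against 39.2 CPM. In MGJ2 Il2 was at 4.53 CPM in Col2a1-high cells.

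The other lists were read in NK-like cells of MGJ2 by the same count, beside 24.5% of all genes higher at that ratio and 6.13% lower. Of the granule and death-ligand genes 5 of 8 were higher and 2 lower. Those with the most UMIs were Srgn, the granule proteoglycan, at 1659 CPM (one of the 2 lower), Serpinb9, the inhibitor of granzyme B, at 735, Ctsw at 335 and Fasl, the death ligand, at 226. Of the NK receptors and adaptors 7 of 10 were higher and 1 lower. The signalling adaptors led this list, with Fcer1g at 1379 CPM and Tyrobp at 889 (neither of them past the ratio) and Hcst at 331, followed by the Klrd1 partner Klrc1 at 275.

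Of the lymphocyte transcription factors 7 of 9 were higher and 2 lower, with Id2 at 1779 CPM, Runx3 at 786, Ets1 at 583 and Nfil3 at 239, all among the higher ones. Of the interferon-gamma axis 7 of 9 were higher and 1 lower. The chemokine Ccl5 was at 7132 CPM, the receptor chain Ifngr1 at 2172, Xcl1 at 428 and Ccl4 at 308, of which Ccl4 was not past the ratio. Xcl1, one of the higher ones, was also a marker used to name NK-like cells, so its height there carries no information. Of the receptor ligands 0 of 3 were higher and 1 lower, with H2-T23 at 128 CPM, Clec2d, the lower one, at 64.8, Clec2i at 22.1 and Pvr at 12.4.

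By Pearson correlation of log2(CPM + 10) over the named classes, the genes most like Il2rb were Sh2d1a (0.99), Trbc1, Gm19585, Sytl3 and Klrc2 over 17 classes of MGJ and Sh2d2a (0.99), Xcl1, Cd160, Sh2d1a and Fasl over 13 classes of MGJ2. Sh2d1a was named in both. Among the other members with at least 50 UMIs in the library the coefficient ran from 0.60 (Klrd1) to 0.94 (Prf1) in MGJ (6 genes) and from 0.49 (Klrd1) to 0.97 (Gzma) in MGJ2. The classes shared a library and its free RNA, and Xcl1 was among the markers that named NK-like cells and Trbc1 among those that named T-like cells.

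Il2rb lies on chromosome 15 at 78479256 to 78495271 on the minus strand (GRCm38), with 13 annotated genes within 100 kb, 12 of them in the files. Tmprss6, the next gene downstream on the same strand after 10622 bases, was at 81.0 and 100.4 CPM in NK-like cells and 1.22 and 3.77 CPM in T-like cells. C1qtnf6, 28075 bases upstream on the same strand, was at 52.4 and 84.5 CPM in NK-like cells, 79.95 and 60.3 CPM in Col2a1-high cells and 246 and 209 CPM in tendon-like cells. Tmprss6 was thus higher in NK-like than in T-like cells, as Il2rb was, whereas C1qtnf6 was highest in tendon-like cells among the classes named here.

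Of the other neighbours, Rac2, a small GTPase of blood cells, was at 453 and 492 CPM in NK-like cells, 483 and 312 CPM in T-like cells and 6.34 and 13.9 CPM in Col2a1-high cells. Mpst, Kctd17, Tst, Gm36738, Sstr3 and Tex33 were each under 20 CPM in NK-like, T-like and Col2a1-high cells of both libraries. Gm49481, Gm36644 and Gm49490 gave 0 UMIs in NK-like and T-like cells.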

How the data were processed

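Droplet libraries (10x 3′ chemistry, loading aimed at 5000 cells each) were counted by the authors on GRCm38. The headers of the files name Cell Ranger 4.0.0 and the submitters' processing notes name Seurat. The deposited files hold whole-number UMI counts per gene and barcode, not normalized; the authors' cell names were not used here. Both libraries were left unassigned because the labels give no day. Members and lists were chosen with earlier results of these data known.

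Barcodes with at least 200 genes and at most 20% mitochondrial UMIs were kept, and Scrublet calls (scanpy 1.11.5) were removed (1.04% of MGJ, 2.84% of MGJ2, beside rates of 10.8% and 6.24% preset from the barcode numbers). Cells of both libraries were clustered together (2000 variable genes without the 10 members, 30 components, 15 neighbours, Leiden resolution 1) into 29 clusters, 15 of which came to over 90% from 1 library. Clusters were named from fixed marker lists, and hypertrophic markers were counted as chondrocyte markers after the leading genes had been seen. CPM is the summed UMIs of a gene per 1000000 UMIs of the class. Exact Poisson intervals stand with levels, exact conditional intervals with ratios and odds ratios, and Clopper-Pearson intervals with shares. Shares at 2000 UMIs are expected shares over cells of at least that depth, with the interval at the nearest whole count. A class with 0 UMIs has a floor of 3 counts. Barcodes outnumbered the aimed-at cells, PCR and capture errors are not in the intervals, and cells of 1 library are not replicates. All 10 genes were named, and of each list up to 4 genes by level in the class described, except in the passages on granzymes, Trac, Trdc, Ctsw, Il2, Il2ra and Il2rg, whose genes were singled out after their values were seen. Positions matched the GRCm38 annotation for 99.6% of gene identifiers. The scripts were tested on simulated data. Alternatives are described in the closing section.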

Additional observations from a re-analysis of the deposited data

Results flagged for a closer look

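The 975 barcodes of MGJ and 425 of MGJ2 that failed the filters or were called doublets entered no comparison, yet the 10 genes summed to 59.0 CPM in the former (218 UMIs) and 770 CPM in the latter (2326 UMIs), both above the level that a count of 0 allows. Kept cells stood at 32.5 and 658 CPM. Il2rb made up 1138 of the UMIs in the removed barcodes of MGJ2, and Gzmb 59 of those in MGJ. Which of these barcodes held lymphocytes was not tested.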

How the results depend on the processing

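No paired analysis was possible because the labels give no groups and no replicate numbers to pair. Alternatives numbered 91 for the main values, of which 67 stayed within the interval of the value, 18 moved and 6 reversed. For the 20 NK-to-T ratios they numbered 167, of which 149 stayed within the interval, 17 moved and 1 reversed. The reversed ratio was that of Gzmb in MGJ2, which fell to 0.701 with NK and T cells defined per cell. That definition asked for at least 2 UMIs of a cell's own markers and 0 of the other list. The share of member UMIs in NK-like cells became 50.4% (MGJ) and 69.7% (MGJ2) with every cell weighted equally, 11.3% and 12.2% with the per-cell definition, which names fewer cells, 26.8% and 53.9% with Il2rb left out (added after seeing the data), and in MGJ2 58.3% with doublet calls kept and 58.1% with the members allowed among the variable genes. Clustered alone, MGJ gave no NK-like cluster. The Il2rb ratio to the reference class moved to 0.0257 in MGJ against erythroid-like cells. In MGJ2 it was 1.16 in chondrocyte-like clusters and turned below 1 without Ptprc (0.495), without the 4 richest cells (0.449, added), against erythroid-like (0.757, 4 cells) and against pre-B cell-like cells (0.567). For the Ptprc and richest-cell alternatives, cells were left out of the Col2a1-high side only. The odds ratio in MGJ was 7.58 without Ptprc, 16.2 with Gzma alone and 1.35 with Nkg7 alone. With all other 9 genes, 82 of whose 172 UMIs in Col2a1-high cells were Gzmb in cells without Il2rb, it turned to 0.890. With T-like cells as the source (added) it turned to 0.777. In MGJ2 it was 5.68 without Ptprc, and with alternatives added after seeing the data 1.69 without the 4 richest cells, 0.433 with T-like cells as the source and 59.9 with Cd3d, Cd3e and Cd3g in T-like cells as the measure. With a minimum of 20 UMIs, 16.6% of genes passed in Col2a1-high cells of MGJ. The causes of these changes were not tested. NK-like cells of MGJ (70) limit the sparse genes, with 2 Ifng, 5 Ncr1 and 8 Klrb1c UMIs.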
